A study of Mus musculus with 21 samples.

Results

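Cd44 and 8 other genes of the hyaluronan system were followed in RNA of the left ventricle of mice with and without Notch3. Cd44 was picked because all 3 Notch3-/- mice lie above the 4 control mice. The other 8 genes (Has1, Has2, Hyal1, Hyal2, Vcan, Hmmr, Cemip2 and Hapln1) were chosen by their function. Together they are 9 of the 46517 genes in the deposited table. The study asks what loss of Notch3, a receptor of vascular mural cells, does to the heart. It compares 4 control mice (Notch3+/+) with 3 Notch3-/- mice, all C57BL/6J and 10 to 14 months old. The Notch3-/- mice carry a targeted insertion of lacZ in the Notch3 gene. Each mouse gave 3 technical libraries, summed here, and the mouse is the replicate. The sex of the mice is not given.

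Counted reads per mouse were 3091461, 4638786, 4208205 and 3046326 in control mice 1 to 4. They were 3828763, 5167869 and 5086740 in Notch3-/- mice 1 to 3. Control mice 1 and 2 carry labels that start with X, and the other 5 mice carry labels that start with k. The X mice are of 1 genotype only, so label type and genotype cannot be told apart among them. All levels below are in CPM, counts scaled to the normalized library total, in the same mouse order. A gene named as the most abundant of a list, or as leading it, is so by CPM per kb of exon.

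Hyaluronan is a long, unbranched sugar polymer of the extracellular matrix, made at the plasma membrane by the Has synthases and broken down by hyaluronidases. CD44 is its widespread cell surface receptor, carried by leukocytes, fibroblasts and many other cells. Versican and the link protein HAPLN1 bind hyaluronan in the matrix, and HMMR binds it and also acts on the mitotic spindle.

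Notch3 itself gave 57.3, 42.1, 57.6 and 61.8 CPM in the control mice and 6.01, 7.57 and 4.73 CPM in the Notch3-/- mice. The 2 genotypes do not overlap. The log2 fold change is -3.16 (SE 0.23; FDR 0.00173, edgeR with Benjamini-Hochberg). Notch3 is the 1 gene called among 14324 tested (0.00698%). Without Notch3-/- mouse 3 the same test calls 936 genes, and in the 5 k-labelled mice alone it calls 0. There Notch3 itself is not called, at -3.29 (FDR 0.206, edgeR with Benjamini-Hochberg). The count of 0 therefore does not tell whether other genes differ. In those 5 mice 949 genes have an unadjusted edgeR p below the threshold, and DESeq2 with the same expression filter calls 194. On all 7 mice and the same 14324 genes DESeq2 calls 300. With all 28790 genes that have a count, DESeq2 calls 601 and edgeR calls 639. On the libraries, with 11193 genes tested, limma-voom calls 65.

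The tissue label was checked against marker genes. Myh6, the most abundant per kb of 8 cardiomyocyte genes, gave 5218, 3613, 3874 and 4939 CPM in the control mice and 4511, 3209 and 3512 CPM in the Notch3-/- mice. Ttn is higher in CPM, at 9153 to 15221 over all mice. All 8 cardiomyocyte genes have a negative log2 fold change, with a median of -0.22, and the genotypes overlap in Myh6. The 5 atrial genes sum to 46.8, 35.8, 165.9 and 84.5 CPM and to 48.6, 196.5 and 79.0 CPM, and Nppa is the most abundant. These are levels of whole tissue, in which fewer cells and less RNA per cell cannot be told apart.

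Cd44, the receptor, gave 39, 56, 55 and 41 counts in the control mice and 117, 154 and 117 counts in the Notch3-/- mice. These are 12.8, 11.8, 12.9 and 13.7 CPM against 32.0, 32.4 and 22.1 CPM. The control mice lie close together, Notch3-/- mice 1 and 2 are the highest, and Notch3-/- mouse 3 lies between them and the controls. The means are 12.8 CPM (SD 0.778, n = 4) and 28.8 CPM (SD 5.81, n = 3), and the log2 fold change of the edgeR fit is 1.17, or 2.25-fold. Among all genes tested, 655 (4.57%) have every Notch3-/- mouse above every control mouse, and 567 (3.96%) have every Notch3-/- mouse below. Cd44 was picked on this separation, so nothing further is read from it.

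In the technical libraries Cd44 scatters more, and single libraries do not keep the order of the mice. These libraries sum to the mouse values that Cd44 was picked on, so they are description only. Cd44 ranged from 8.43 to 21.4 CPM (median 12) over the 12 control libraries and from 10.8 to 36.1 CPM (median 27.8) over the 9 Notch3-/- libraries. In 8 of the 9 Notch3-/- libraries Cd44 lies above the highest control library. The exception is library 2 of Notch3-/- mouse 3, with 15 counts and 10.8 CPM (95% counting interval 6.03 to 17.8). On the log2 CPM scale the SD between libraries of a mouse is 0.42, and the SD between mice of a genotype, from the means of their libraries, is 0.24.

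**Figure D1:**
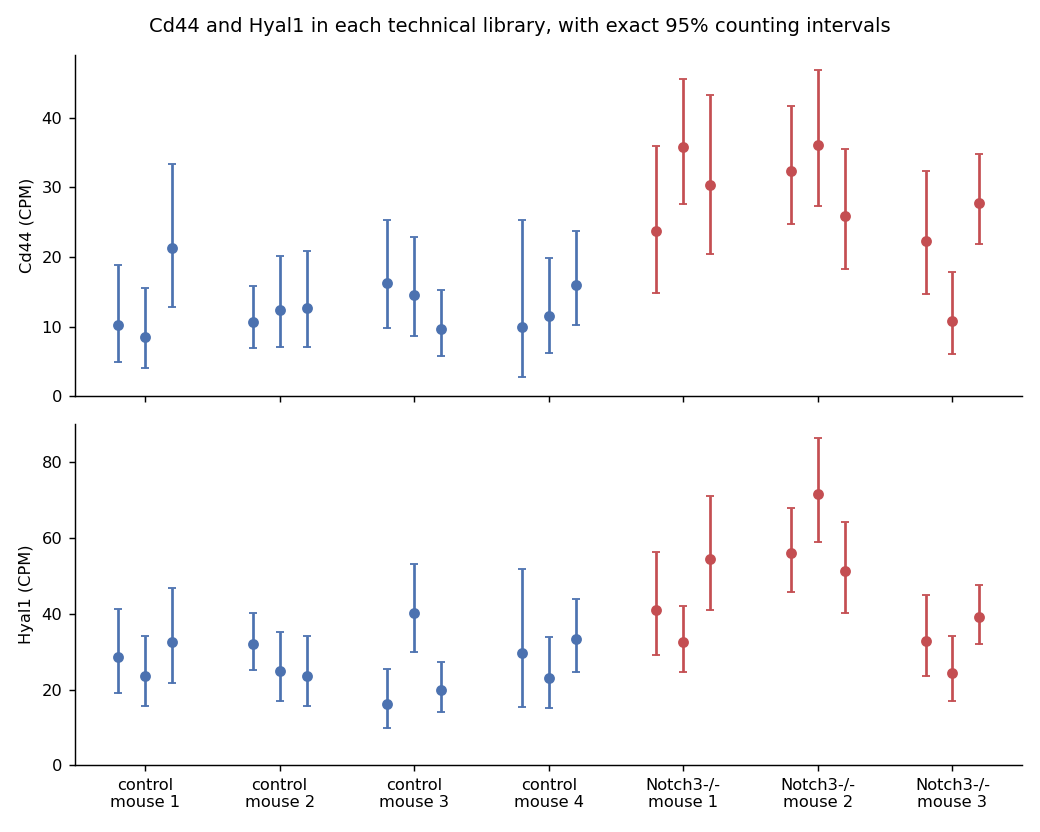
Cd44 (top) and Hyal1 (bottom) in CPM in each of the 21 technical libraries, grouped by mouse, with exact counting intervals. For Cd44, which was picked on the sums of these libraries, those of Notch3-/- mice 1 and 2 lie above all control libraries.

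The Cd44 gene lies on the minus strand of chromosome 2, and its promoter is shown as that of the picked gene. The bases before its start (RefSeq, GRCm38.p6, minus strand, chr2:102901666-102901915) are printed below. Capitals mark TGGGAA or its reverse complement TTCCCA, the core of the sites bound by RBPJ, the DNA-binding partner of Notch receptors.

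Cd44: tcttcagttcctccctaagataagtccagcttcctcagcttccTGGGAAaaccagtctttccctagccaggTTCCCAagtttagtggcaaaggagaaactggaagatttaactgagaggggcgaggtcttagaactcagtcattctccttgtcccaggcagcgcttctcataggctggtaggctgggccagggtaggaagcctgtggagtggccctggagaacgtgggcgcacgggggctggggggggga

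Cd44 holds 2 matches, TGGGAA at -207 and TTCCCA at -179 from the start. At least 1 match occurs in 7087 of 32817 promoters of this length (21.6%), and at least 2 occur in 909 (2.77%). Of the 7 members with a promoter entry, 2 hold a match and 5 hold none. The windows of Hyal2 and Hapln1 lie wholly inside the gene as GENCODE draws it, and those of Has1 and Hyal1 lie inside it for 17 and 23 of 250 bases. Has2 and Cemip2 have no entry. The matches are described only, and binding was not measured.

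Has1 and Has2, the 2 synthases among the members, have few counts. Has1 gave 0, 2, 8 and 0 counts in the control mice and 8, 9 and 8 counts in the Notch3-/- mice. The sums are 10 and 25 counts, and control mouse 3 reaches the count of Notch3-/- mice 1 and 3. A count of 0 stands for less than 0.988 CPM in control mouse 1 and less than 1.00 CPM in control mouse 4. Has2 gave 0, 4, 6 and 0 counts against 0, 4 and 4 counts, with sums of 10 and 8. Neither gene passed the expression filter, so neither was tested. Has3, the third synthase and a gene of the wider lists below, gave 7.24, 10.5, 8.70 and 8.35 CPM and 9.84, 7.36 and 9.08 CPM, with overlap, and shares 352 exon bases with Chtf8 on the opposite strand.

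The hyaluronidases are the most abundant part per kb of exon. Hyal1 gave 27.99, 28.5, 24.9 and 29.4 CPM in the control mice and 41.3, 61 and 34.04 CPM in the Notch3-/- mice. All 3 Notch3-/- mice lie above all 4 control mice, with Notch3-/- mouse 2 the highest and Notch3-/- mouse 3 the nearest to the controls. The means are 27.7 CPM (SD 1.93) and 45.4 CPM (SD 13.95). The log2 fold change is 0.71 (SE 0.21; FDR 0.253, edgeR with Benjamini-Hochberg), and Hyal1 is not called. Without Notch3-/- mouse 3 it is called, at 0.88 (FDR 0.0308). Without Notch3-/- mouse 2 the value is 0.44, and with a hepatocyte score as a covariate it is 0.16. Over all alternatives the FDR runs from 0.0308 to 0.9998.

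Hyal1 shares 1920 of its 3777 exon bases with Naa80 on the same strand. It also shares 159 with Hyal3 on the same strand, which has a log2 fold change of -0.18 (FDR 0.897, edgeR with Benjamini-Hochberg). Naa80 gave 53.3, 61.1, 65.4 and 72.1 CPM in the control mice and 51.4, 73.6 and 66.8 CPM in the Notch3-/- mice. The genotypes overlap in Naa80, with a log2 fold change of 0.02 (FDR 0.981, edgeR with Benjamini-Hochberg). How reads of shared bases were counted is not given. In the libraries, Hyal1 ranged from 16.2 to 40.3 CPM in control and from 24.4 to 71.6 CPM in Notch3-/- mice, and 5 of 9 Notch3-/- libraries lie above every control library.

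The promoter of Hyal1 (RefSeq, GRCm38.p6, plus strand, chr9:107576700-107576926) is shown as that of the other member without overlap between genotypes. It holds no match, and it is printed for the 227 bases that lie before the gene in GENCODE.

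Hyal1: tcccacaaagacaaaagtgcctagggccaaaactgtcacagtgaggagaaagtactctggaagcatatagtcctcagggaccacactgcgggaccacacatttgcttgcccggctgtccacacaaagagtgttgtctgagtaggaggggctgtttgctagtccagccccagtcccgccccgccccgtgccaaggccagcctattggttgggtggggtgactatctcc

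Hyal2 gave 66.8, 81.1, 50.8 and 72.1 CPM in the control mice and 67.8, 93.8 and 59.6 CPM in the Notch3-/- mice. The genotypes overlap widely, and Notch3-/- mouse 2 is again the highest. The log2 fold change is 0.12 (FDR 0.878, edgeR with Benjamini-Hochberg). Its sign turns to -0.09 without Notch3-/- mouse 2 and to -0.39 with the hepatocyte covariate.

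Cemip2, a cell surface protein named for hyaluronan breakdown, gave 44.8, 24.0, 25.6 and 26.1 CPM in the control mice and 34.7, 53.0 and 20.4 CPM in the Notch3-/- mice. The highest control mouse lies above 2 of the 3 Notch3-/- mice. The log2 fold change is 0.26 (FDR 0.8295, edgeR with Benjamini-Hochberg). Without Notch3-/- mouse 2 it is -0.13, and with the hepatocyte covariate it is -0.76.

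Among the matrix binders, Vcan gave 20.4, 13.5, 16.2 and 15.0 CPM in the control mice and 15.3, 16.6 and 19.9 CPM in the Notch3-/- mice. The 2 ranges nearly coincide. The log2 fold change is 0.09 (FDR 0.923, edgeR with Benjamini-Hochberg), and it is -0.03 without Notch3-/- mouse 3. Hapln1 was counted in control mouse 2 (3 counts) and Notch3-/- mouse 2 (8 counts) and in no other mouse, and it was not tested. In the other mice its 0 stands for less than 0.567 to 1.00 CPM.

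The promoter of Vcan (RefSeq, GRCm38.p6, minus strand, chr13:89742513-89742762) is shown as the other one with a match, TGGGAA at -187.

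Vcan: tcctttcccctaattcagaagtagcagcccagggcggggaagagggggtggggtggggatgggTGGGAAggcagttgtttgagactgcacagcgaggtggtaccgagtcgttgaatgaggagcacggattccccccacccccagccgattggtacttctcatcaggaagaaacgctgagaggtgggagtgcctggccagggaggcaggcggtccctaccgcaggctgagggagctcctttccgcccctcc

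Hmmr gave 5.93, 0.843, 2.35 and 7.01 CPM in the control mice and 5.47, 6.73 and 3.78 CPM in the Notch3-/- mice. The control mice span the whole range of the Notch3-/- mice. The log2 fold change is 0.46 (FDR 0.839, edgeR with Benjamini-Hochberg). It is 0.079 without control mouse 2 and 0.88 without control mouse 4. Hmmr lies beside 12 cell division genes that sum to 89.6, 91.5, 54.3 and 63.5 CPM and to 60.7, 82.5 and 40.3 CPM. Of these, 6 were tested, 5 with a positive and 1 with a negative log2 fold change, and the most abundant is Cenpf.

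Of the 8 members other than Cd44, 5 were tested and 3 were not. All 5 have a positive log2 fold change, 0 are called by edgeR, and 1 (Hyal1) has an unadjusted p below the threshold. On the same 14324 genes DESeq2 also calls 0 of these 5, and 300 of all genes. Among all genes tested, 1051 (7.34%) have an unadjusted edgeR p below the threshold and a higher level in Notch3-/- mice. With a lower level there are 437 (3.05%). Of the 14324 genes, 7108 have a positive and 7216 a negative log2 fold change.

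**Figure D2:**
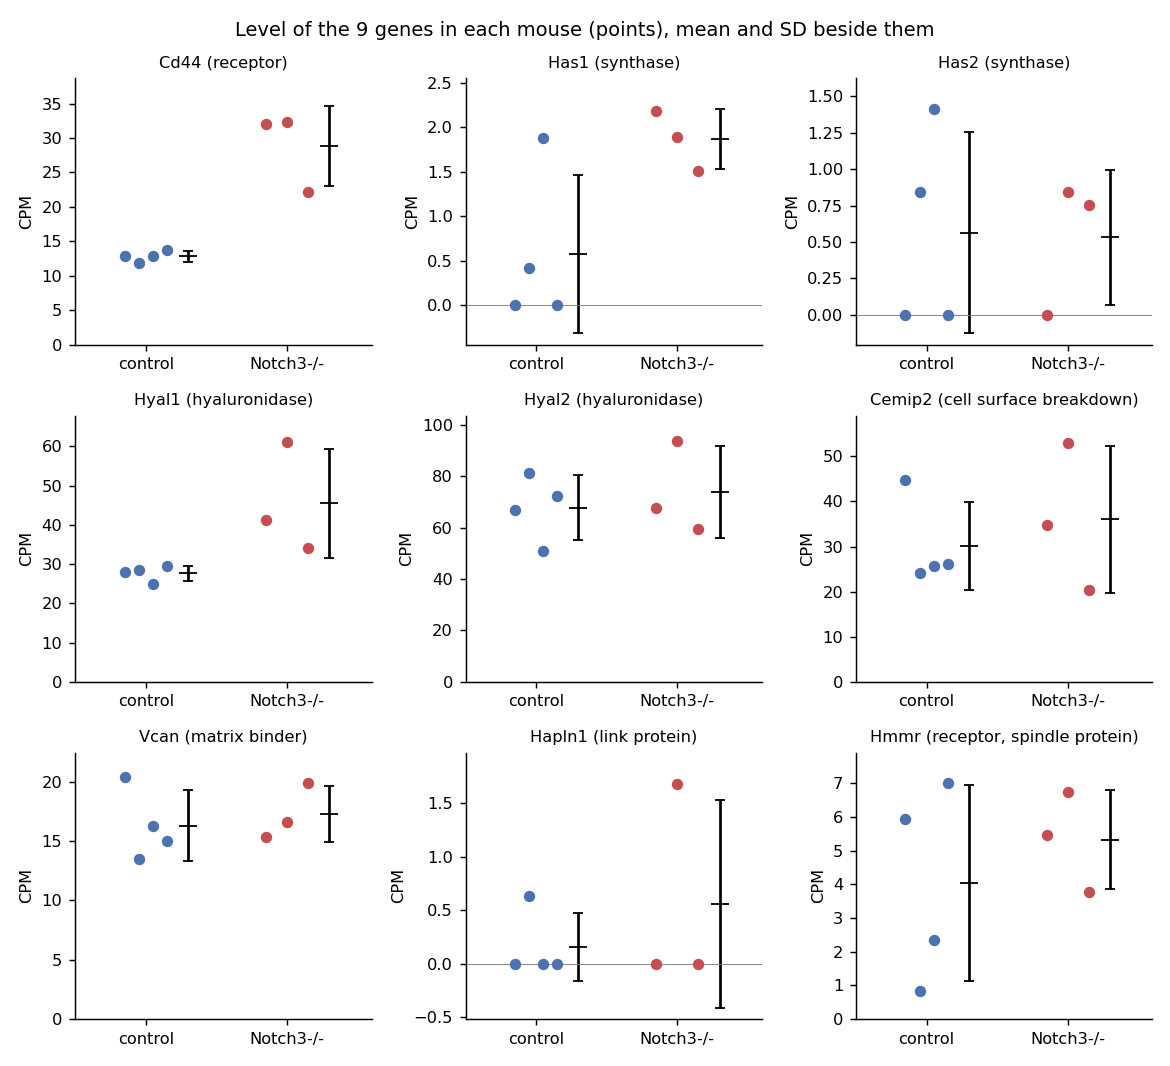
Level in CPM of the 9 genes in each mouse (points), with mean and SD beside them. Cd44, which was picked for this, and Hyal1 separate the genotypes, and the other 7 overlap. Among all genes tested, 4.57% separate with Notch3-/- mice higher and 3.96% with Notch3-/- mice lower.

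Per kb of exon, the order in the control mice is Hyal2 (20.6 CPM per kb, SD 3.87), Hyal1 (7.33, SD 0.510), Cemip2 (3.54, SD 1.15), Cd44 (1.89, SD 0.115) and Vcan (1.13, SD 0.205). The ranges of these 5 genes do not overlap from each to the next. Hmmr follows at 0.743 CPM per kb (SD 0.537), and its range overlaps with those of Vcan, Has2 and Has1. Has2, Has1 and Hapln1 come last, at 0.133, 0.127 and 0.0268 CPM per kb, and overlap with each other. In the Notch3-/- mice Cd44 reaches 4.25 CPM per kb (SD 0.857), beside 4.23 (SD 1.92) for Cemip2.

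The wider hyaluronan system was followed in 4 further lists with 38 genes, of which 36 have a count and 24 were tested. Of these, 19 have a positive and 5 a negative log2 fold change, with a median of 0.36. By edgeR 0 are called and 6 have an unadjusted p below the threshold, all with a higher level in Notch3-/- mice. Over all genes tested that share is 7.34% higher and 3.05% lower. Among the 6 is Ambp, which passed the expression filter through its Notch3-/- mice, so the count of 6 is description only. The 8 synthesis and precursor genes sum to 432, 611, 578 and 456 CPM in the control mice and to 599, 910 and 600 CPM in the Notch3-/- mice, and Ugp2 is the most abundant. The 8 breakdown genes, 4 of them tested, sum to 245, 275, 274 and 315 CPM and to 276, 277 and 290 CPM. Their most abundant gene is Hexa, and their median log2 fold change is -0.06.

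The 7 receptor genes sum to 223, 213, 231 and 196 CPM in the control mice and to 294, 304 and 198 CPM in the Notch3-/- mice. Lyve1 is the most abundant per kb. Stab1 is the highest in CPM, at 136, 79.5, 121 and 105 CPM and 155, 126 and 93.6 CPM. Stab2, a receptor of liver sinusoidal endothelium, gave 0.659, 3.79, 4.47 and 4.01 CPM and 20.5, 25.7 and 4.54 CPM, without overlap. The 15 matrix and plasma binders sum to 74.1, 98.6, 78.3 and 79.8 CPM and to 1080, 2947 and 78.1 CPM. Their most abundant gene over all mice is Ambp, a plasma protein made in liver, through Notch3-/- mice 1 and 2 (267 and 571 CPM). In the other mice it gave 0.235 to 4.00 CPM, and the most abundant there is Habp2, which shares 268 exon bases with Nrap on the opposite strand. Hapln2 and Acan have no count in any mouse. In the sums of both lists Notch3-/- mice 1 and 2 are high and Notch3-/- mouse 3 lies at the control level. The median log2 difference of the 5 binders tested is 0.90, 1.77 and 0.88 in the Notch3-/- mice, above every control mouse (highest 0.67). Of these binders, Ambp has 4, 19, 1 and 2 counts in the control mice and 977, 2714 and 17 in the Notch3-/- mice. It passed the expression filter through the latter, so nothing is read from this median. Notch3-/- mice 1 and 2 are also high in hepatocyte genes, and the part of these cells in the result was not tested.

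The 14 genes of Cd44 ligands, sheddases and cytoskeletal partners sum to 1094, 1079, 1127 and 1109 CPM in the control mice and to 1270, 1616 and 1129 CPM in the Notch3-/- mice. Of 12 tested, 8 have a positive and 4 a negative log2 fold change, with a median of 0.12. The most abundant is Msn, and no gene of this list separates the genotypes. By edgeR 0 are called, and Lgals9 and Esrp2 have an unadjusted p below the threshold. Lgals9 gave 49.7, 54.4, 52.9 and 73.5 CPM and 153, 333 and 54.1 CPM. Esrp2 gave 4.94, 4.00, 1.88 and 3.34 CPM and 38.0, 102 and 2.08 CPM. Both are high in Notch3-/- mice 1 and 2, as are hepatocyte genes, and the part of these cells was not tested.

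**Figure D3:**
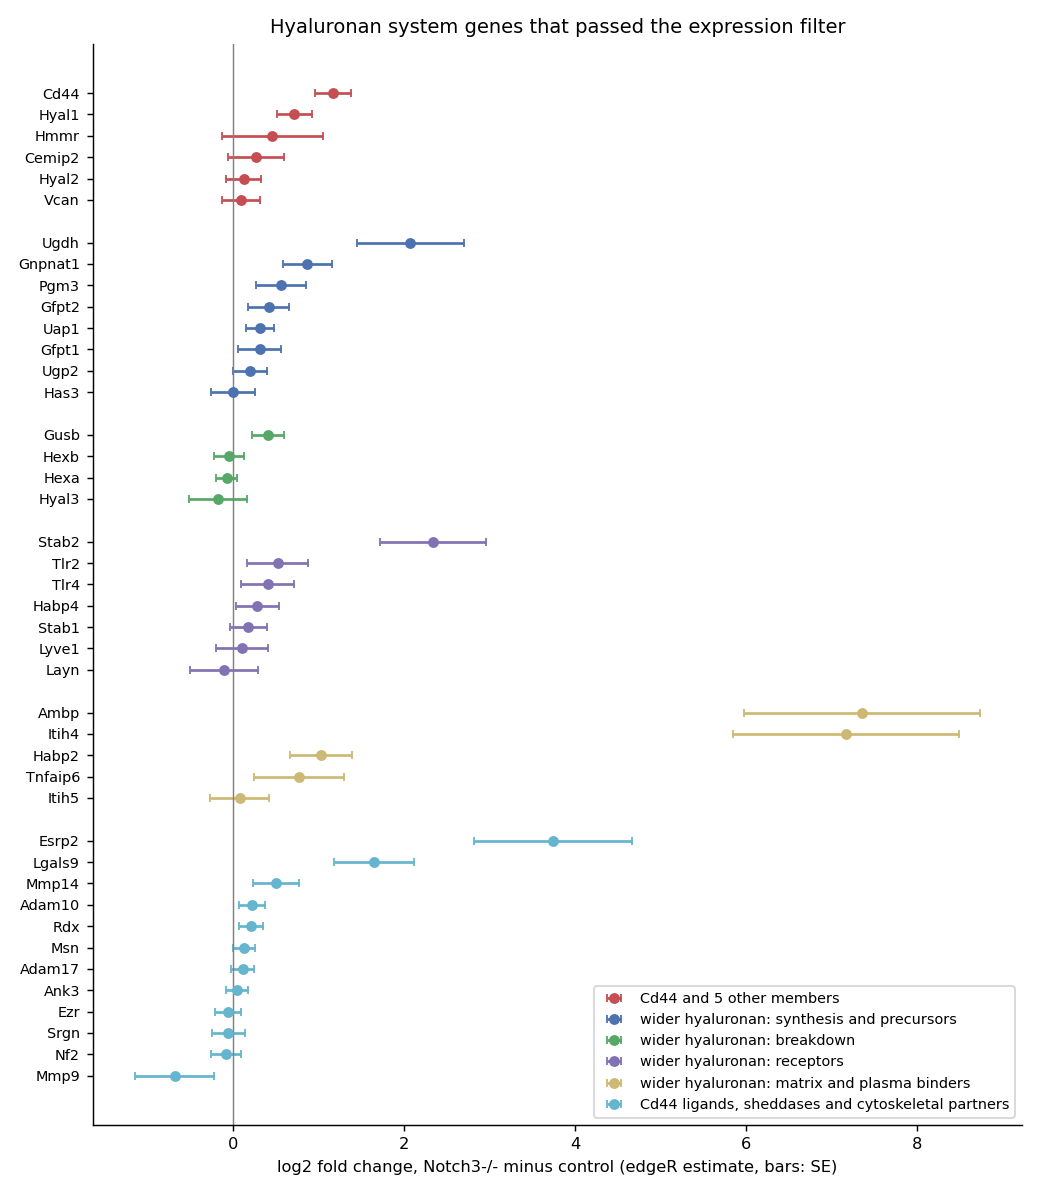
Log2 fold change (Notch3-/- minus control, bars SE) of the genes of the hyaluronan system that passed the expression filter. The genes with the largest values, such as Ambp, also have the widest bars.

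Marker lists of cells that the tissue could hold were read in whole, and their part in the result was not tested. For every separation named below, the shares over all genes tested are 4.57% with Notch3-/- mice higher and 3.96% with them lower. The 10 hepatocyte genes sum to 190, 273, 112 and 121 CPM in the control mice and to 5681, 8377 and 245 CPM in the Notch3-/- mice. Alb, the most abundant, gave 22.4, 81.1, 2.35 and 10.7 CPM and 1705, 1875 and 66.9 CPM. Notch3-/- mice 1 and 2 stand far above all others, and the sum of Notch3-/- mouse 3 lies in the control range. Trf carries 98.2 to 144 CPM of the control sums and 130 CPM of that of Notch3-/- mouse 3, and it shares 2108 exon bases with Gm20425 on the same strand. In Cps1, Fgb, Apoa1 and Serpina1c, 4 of the 10 genes, Notch3-/- mouse 3 also lies above every control mouse. For Cps1 it is 4.35 CPM against at most 3.37 CPM, and for Apoa1 10.8 CPM against at most 10.3 CPM. In that mouse Hyal1 is 34.04 CPM, above the highest control mouse at 29.4 CPM, as are these 4 hepatocyte genes. Its log2 fold change is 0.30 with Notch3-/- mouse 3 alone against the 4 control mice and 0.16 with a hepatocyte score as a covariate. Whether Hyal1 differs apart from the hepatocyte genes was not tested. Cd44 is 22.1 CPM in Notch3-/- mouse 3. Its place above the controls in all 3 Notch3-/- mice is how it was picked and does not tell it apart from the hepatocyte genes. The Cd44 log2 fold change is 0.76 with a hepatocyte score as a covariate and 0.79 with Notch3-/- mouse 3 alone against the 4 control mice, and both values rest on the mice it was picked on.

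The 7 Kupffer and liver sinusoidal genes found sum to 11.2, 8.43, 9.41 and 10.7 CPM in the control mice and to 82.3, 129 and 18.9 CPM in the Notch3-/- mice, and Vsig4 is the most abundant. All 3 Notch3-/- mice lie above the controls, with Notch3-/- mouse 3 the nearest to them.

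The 10 leukocyte genes sum to 221, 195, 207 and 258 CPM in the control mice and to 265, 372 and 282 CPM in the Notch3-/- mice. All 10 have a positive log2 fold change, with a median of 0.27, and the most abundant per kb is Tyrobp. Lcp1 gave 45.4, 34.1, 49.9 and 56.8 CPM and 74.9, 133 and 84.9 CPM, without overlap. The 10 macrophage genes, led by C1qb, sum to 413, 372, 429 and 368 CPM and to 429, 423 and 486 CPM, with 7 positive and 3 negative values. Lymphocyte genes (11, led by Cd79a) sum to 9.91 to 26.4 CPM over all mice. Neutrophil genes (7, led by S100a8) sum to 4.21 to 12.02 CPM, and Ly6g and Mmp8 have no count in any mouse.

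The 10 fibroblast genes sum to 1631, 1468, 1387 and 1369 CPM in the control mice and to 1593, 1727 and 1949 CPM in the Notch3-/- mice. Of these, 7 have a positive and 3 a negative log2 fold change, with a median of 0.26. Col3a1 gave 295, 206, 248 and 284 CPM and 360, 453 and 526 CPM, higher in every Notch3-/- mouse. Dcn, the most abundant, gave 582, 508, 494 and 456 CPM and 431, 395 and 452 CPM, lower in every Notch3-/- mouse. Of the 4 fibroblast genes without overlap, Col3a1, Col1a1 and Pi16 are higher in Notch3-/- mice and Dcn is lower. Over all genes tested, 4.57% separate with Notch3-/- mice higher and 3.96% with them lower.

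The 8 mesothelium and epicardium genes found sum to 12.5, 16.4, 59.0 and 61.8 CPM in the control mice and to 76.0, 212 and 122.7 CPM in the Notch3-/- mice. The most abundant over all mice is Krt8, at 1.65, 1.26, 1.18 and 0 CPM and at 37.4, 175 and 4.54 CPM. Krt8 is also made by hepatocytes, and Notch3-/- mice 1 and 2 are the highest in Krt8 and in the hepatocyte sum. In the control mice Upk3b is the most abundant per kb. It gave 0.329, 0.421, 14.8 and 15.0 CPM and 9.29, 5.26 and 25.2 CPM. Msln gave 0.329, 0.843, 10.6 and 12.02 CPM and 7.10, 5.05 and 42.9 CPM. Both are low in control mice 1 and 2 and highest in Notch3-/- mouse 3, and the genotypes overlap.

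Endothelial genes (8, led per kb by Cldn5) sum to 890 to 1416 CPM in control and to 1228 to 1290 CPM in Notch3-/- mice, and the median of their log2 fold changes is 0.05. The 6 lymphatic endothelial genes, led by Prox1, have 5 positive values and 1 negative value, with a median of 0.28. The 7 vascular smooth muscle genes, led by Smtn, sum to 758, 597, 546 and 629 CPM and to 693, 481 and 516 CPM. Of 5 tested, 2 have a positive and 3 a negative log2 fold change. Myh11 gave 39.8, 20.4, 10.6 and 19.7 CPM and 3.28, 5.05 and 3.59 CPM, and every Notch3-/- mouse lies below every control mouse. Pericyte genes (7) have 2 positive and 5 negative values, and the most abundant, Rgs5, separates the genotypes at a log2 fold change of -0.34. Their sums are 1321, 1192, 1221 and 1282.5 CPM in the control mice and 1401, 1637 and 1043 CPM in the Notch3-/- mice. Vtn, 1 of the 2 positive genes, has a log2 fold change of 2.57. It gave 57.3, 55.0, 53.6 and 69.8 CPM in the control mice and 295, 697 and 54.3 CPM in the Notch3-/- mice. The sums of Notch3-/- mice 1 and 2 therefore lie above the controls through Vtn. These 2 mice are also high in hepatocyte genes, and the part of these cells was not tested. The 6 adipocyte genes, led by Cidec, sum to 0.189 to 21.03 CPM and none was tested.

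**Figure D4:**
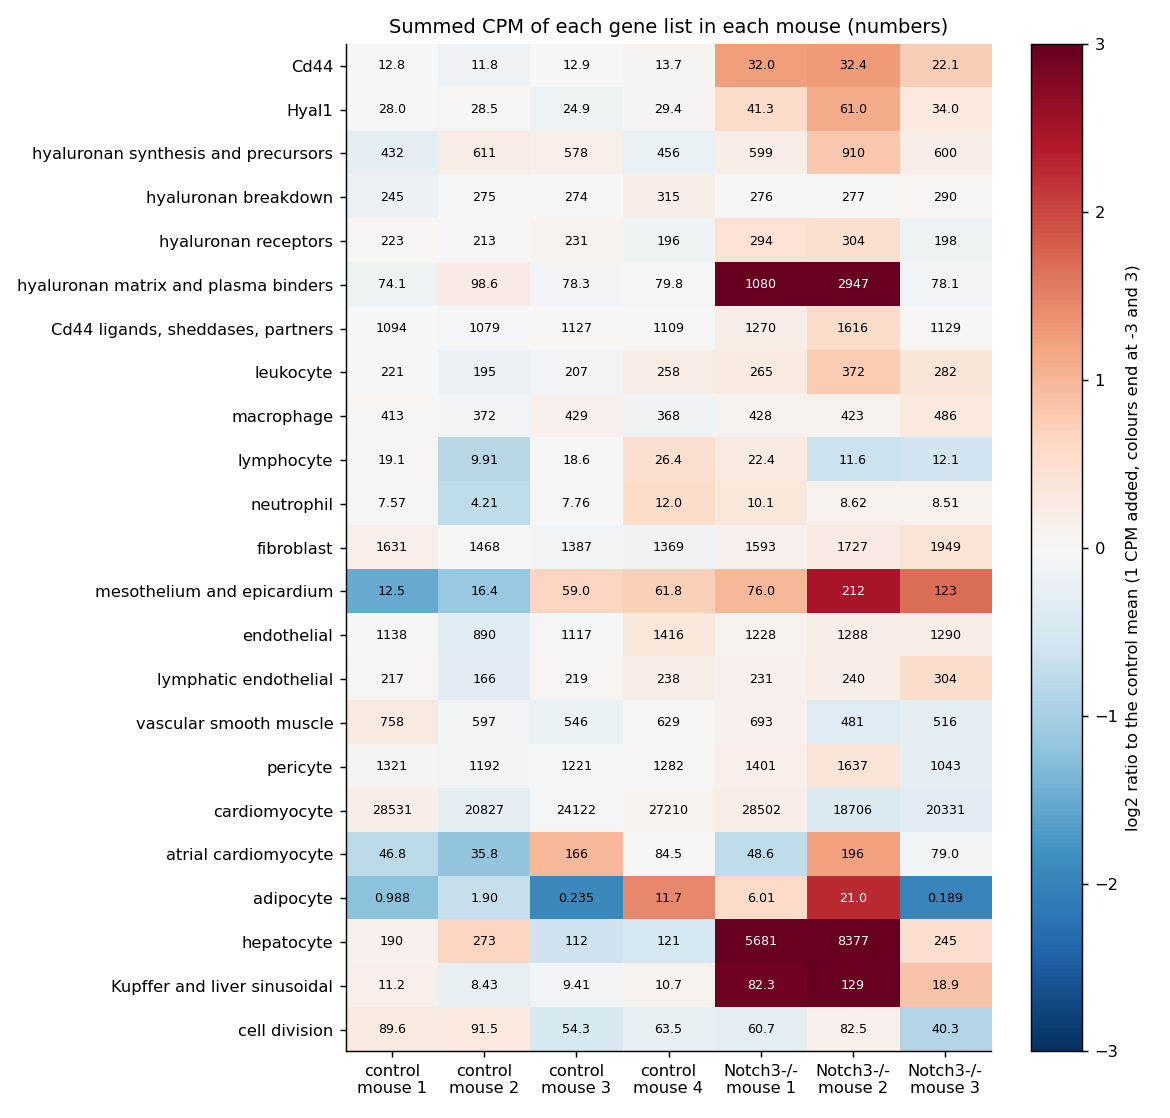
Summed CPM of each gene list in each mouse (numbers), coloured by the log2 ratio to the control mean. Hepatocyte genes and plasma binders are high in Notch3-/- mice 1 and 2.

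Among 10728 genes compared with Cd44 over the 7 mice, the 8 most like it are Kif20a (r = 0.978), Als2cl (0.969), Ifih1 (0.969), Zfp961 (0.967), Gm20547 (0.966), Cfb (0.966), Fbxo42 (0.962) and Cacul1 (0.958). All 8 are higher in every Notch3-/- mouse than in every control mouse, so the genotypes form separate clusters and their difference enters these values. Within genotype, over the 21 libraries, r is -0.21 for Kif20a and 0.53 for Gm20547. Kif20a gave 15.8, 15.8, 17.9 and 16.7 CPM in the control mice and 25.1, 25.5 and 22.9 CPM in the Notch3-/- mice. Kif20a shares 1271 exon bases with Cdc23 on the opposite strand, and the strand setting of the counting is not given. Gm20547 shares 2246 exon bases with Cfb on the same strand, so these 2 are not separate measurements.

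Cfb gave 11.9, 9.06, 14.6 and 14.03 CPM in the control mice and 226, 552 and 37.3 CPM in the Notch3-/- mice. Of the 4 other members compared with Cd44, Hyal1 has the highest r over the 7 mice (0.898), and the difference between genotypes again enters this value. Within genotype, over the libraries, r is 0.51 for Hyal1, 0.52 for Hyal2, 0.22 for Cemip2 and -0.37 for Vcan.

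**Figure D5:**
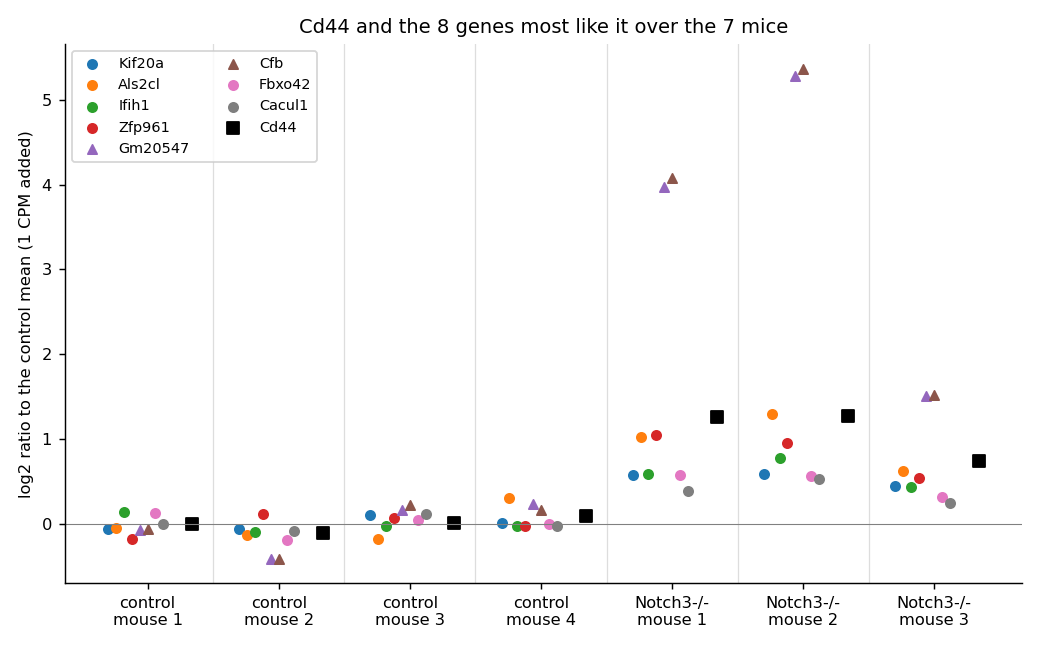
Log2 ratio to the control mean, with 1 CPM added, of Cd44 (squares) and the 8 genes most like it in each mouse. Cfb and Gm20547 (triangles) differ far more than Cd44 in Notch3-/- mice 1 and 2.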

How the data were processed

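RNA of the left ventricle of 7 mice was sequenced by the submitters in 3 technical libraries per mouse, after 22 cycles of PCR without unique molecular identifiers, so that counting intervals and floors cover counting error only. The values are the deposited raw counts per gene. The submitters' processing notes name CASAVA and the mm10 genome. The aligner, the counter and the strand setting are not given in the sources used here. Of 46609 lines, 92 ERCC lines were left out (34 counts in all libraries). Library totals ranged from 464390 to 2134368 in control (median 1196276, n = 12) and from 979804 to 2427783 in Notch3-/- mice (median 1583662, n = 9).

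Counts of the 3 libraries were summed per mouse. In R 4.3.3, edgeR 4.0.16 (default expression filter, TMM factors, quasi-likelihood F test) compared Notch3-/- with control mice over all genes tested. A gene is called at a Benjamini-Hochberg FDR below 0.05 and at least 1.5-fold. Unadjusted p counts use 0.05. CPM use the TMM factors. The SE of a log2 fold change is derived from the fit, as its absolute value over the square root of the F statistic. The code was tested on simulated data. A floor is the CPM of 3 counts, the 95% upper limit of a count of 0. Levels between genes are CPM per kb of GENCODE vM21 exons. Likeness to Cd44 is the Pearson r of log2 CPM (prior count 2) over the 7 mice, among genes of mean CPM of at least 10. The list of genes most like Cd44 ends at 8, and a result beyond it is not reported.

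Cd44 was picked from the counts, so its genotype difference is description with no p. The members, the 22 lists (195 genes, 16 of the lists markers) and the comparisons were chosen with earlier results of these data known. From each list, the most abundant gene per kb and up to 4 genes whose genotypes do not overlap were followed, and those named in the text are chosen from them. The most abundant gene per kb in the control mice, Has3, Msln, Stab1, Ttn, Vtn, Lgals9 and Esrp2 were added after seeing the data. Muc16 and Fcn3 have no row. Promoters are the 250 bases before the RefSeq start.

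Alternatives were DESeq2 1.42.0 on every gene with a count (NA adjusted p stays NA), RLE factors, 2 expression filters, no fold threshold, each mouse left out, k-labelled mice only, a hepatocyte covariate, limma 3.58.1 voom on libraries with and without a block, each technical library, and thinned counts. Notch3-/- mouse 3 against the controls, and DESeq2 with the edgeR expression filter on all mice, on the k-labelled mice and with the hepatocyte covariate, were added after seeing the data. Tables and figures used Python 3.11.15, pandas 2.3.3 and matplotlib 3.10.9.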

Additional observations from a re-analysis of the deposited data

Results flagged for a closer look

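Among the 4 control mice, 1 mouse lying far from the other 3 was looked for in 62 genes with Dixon's ratio, the gap to the nearest mouse over the full range, and 8 genes were found. By chance about 1 in 20 genes would be. Groups of 3 mice were not looked at. Cemip2 is 44.8 CPM in control mouse 1, with the others at 24.0 to 26.1 CPM (ratio 0.902). Hapln1 is 0.632 CPM in control mouse 2 and 0 in the others, but this is 3 counts and lies below the upper limits of the zeros (0.706 to 1.00 CPM), so it does not tell the mice apart. Msn is 287 CPM in control mouse 2, with the others at 325 to 331 CPM. Mrc1 is 44.1 CPM in control mouse 1, with the others at 33.7 to 35.3 CPM. Col1a1 is 167 CPM in control mouse 1, with the others at 126 to 127 CPM. Cfd, an adipocyte gene, is 2.67 CPM in control mouse 4, with the others at 0 to 0.329 CPM. Fgb is 4.64 CPM in control mouse 2, with the others at 0 to 0.334 CPM. Apoa1 is 10.3 CPM in control mouse 2, with the others at 0.706 to 2.34 CPM.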

How the results depend on the processing

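The count of genes called is 1 in the edgeR fit and with RLE factors, genes of at least 10 counts in every mouse, thinned counts or no fold threshold. With every gene of at least 1 count (28790 genes) it is 639 with edgeR and 601 with DESeq2, and on the 14324 genes of the edgeR filter it is 300 with DESeq2. It is 65 with limma-voom on the libraries (11193 genes), and 48, 39 and 77 on technical library 1, 2 or 3 alone. Without 1 mouse it runs from 1 to 936, the highest without Notch3-/- mouse 3. By edgeR it is 0 in the k-labelled mice (949 genes with an unadjusted p below the threshold) and 0 with the hepatocyte covariate (635 genes). Notch3 itself is called in neither, at FDR 0.206 and 0.107 (edgeR with Benjamini-Hochberg). These counts of 0 therefore do not tell whether other genes differ. DESeq2 with the same genes and mice calls 194 and 3. With Notch3-/- mouse 3 alone against the controls, where the lone mouse is taken to vary like the controls, it is 1. With the technical number as a replicate block in limma-voom it is 62, and the consensus correlation is 0.145 (0.152 without the block). The numbers are technical libraries within a mouse and pair no mice. Deviations of control and Notch3-/- libraries of the same number correlated at -0.06, -0.02 and -0.04, and none correlated best with its own number. The Cd44 log2 fold change, 1.17, stayed within 1 SD of the summed mice (0.20) in 19 of 23 alternatives. All of them reuse the mice that Cd44 was picked on, so its values here are description only. The Cd44 value is 0.76 with the hepatocyte covariate in edgeR and 0.76 in DESeq2, 0.93 on technical library 3 alone and 0.79 with Notch3-/- mouse 3 alone. Without 1 mouse it runs from 1.07 to 1.32. The number of other members called is 0 and runs from 0 to 1 without 1 mouse, the 1 being Hyal1 without Notch3-/- mouse 3 (0.88). Hyal1 (0.71) kept its direction in all 23 alternatives. Its value is 0.30 with Notch3-/- mouse 3 alone, and with the hepatocyte covariate 0.16 in edgeR and 0.16 in DESeq2. Hyal2 reversed without 1 mouse (-0.092 to 0.25; -0.0090 without control mouse 3), with the hepatocyte covariate (-0.39 in edgeR and -0.39 in DESeq2) and with Notch3-/- mouse 3 alone (-0.18). Vcan reversed without 1 mouse (-0.030 to 0.21) and on technical libraries 1 (-0.16) and 3 (-0.49). It is 0.69 on technical library 2 and 0.35 with the hepatocyte covariate in edgeR. Hmmr ran from 0.079 to 0.88 without 1 mouse and reversed with Notch3-/- mouse 3 alone (-0.023). Cemip2 reversed without 1 mouse (-0.13 to 0.55), with the hepatocyte covariate (-0.76 in edgeR and -0.76 in DESeq2) and with Notch3-/- mouse 3 alone (-0.55). The cause was not tested. Of 1029 values of the 47 list genes and genes like Cd44, 904 stayed within 1 SD and 125 moved. Depth limits Has1, Has2 and Hapln1, which have a count in 9, 9 and 4 of 21 libraries.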
